A study of Mus musculus with 18 samples.

Results

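The 42 genes described here act in the G2 phase of the cell cycle and in mitosis, and their transcripts were followed while progenitor cultures of the mouse cochlea, the hearing organ, differentiated. They were taken by symbol from a list of mitosis and G2 genes, which was chosen with earlier results of these data known. All 42 were found among the 47729 gene identifiers that each library reports. By role, 7 genes act in entry into mitosis, 2 are transcription regulators, 3 are mitotic kinases, 2 work with the anaphase-promoting complex and 4 belong to the spindle checkpoint. A further 4 form the chromosomal passenger complex, 6 belong to kinetochores and centromeres, 5 are kinesins, 3 act on the spindle, 2 act on chromosomes and 4 act in cytokinesis.

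The series holds 18 RNA libraries in 9 groups of 2. In 3 groups the cells were sorted from native cochlear sensory epithelium at postnatal day 2 and are named for Atoh1, Lgr5 or Sox2. The other 6 groups are LCP cultures, a name the sources used here do not spell out, which were expanded and then differentiated: unsorted cultures were taken on D0, D2, D4 and D10 of their differentiation, and cultures that had been sorted on D0 and D10 alone. According to the design text, native hair cells were set against native supporting cells and LCP samples against each other over time. The sources used here give no genotype or strain and do not say how the native cells and the cultures were sorted. A treatment text with tamoxifen, a Sox2-CreER driver and a β-catenin exon 3 allele is attached to all samples alike but matches no sample title, and no group was defined by it. The shared protocol gives 1 pup per sample. Whether the 2 culture libraries of a group came from separate cultures is not given, so p-values measure only the spread between these libraries, which may be technical.

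Cells enter mitosis when the kinase Cdk1, bound to a B-type cyclin, is freed of its inhibitory phosphates by Cdc25 phosphatases. The transcription factors Foxm1 and Mybl2, working with the MuvB complex, switch on the genes of G2 and mitosis, and the spindle checkpoint holds the anaphase-promoting complex back until every chromosome is attached. In the mammalian cochlea hair cells and supporting cells stop dividing before birth, while supporting cells of the newborn that express Lgr5 can still divide when placed in culture.

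Many promoters of G2 and mitosis genes are known to carry the CHR element, which MuvB binds, and CCAAT boxes, which NF-Y binds. RefSeq promoter windows of the build GRCm38.p6, from 250 bases before to 50 bases after a start, were matched for 34 of the 42 genes. They were matched for 17492 protein-coding genes in all, with the window nearest the first base of the gene taken. For 18 of the 34 the start was that first base. It was furthest off for Kif2c, at 3852 bases, then Ect2 at 375, Aurka at 316 and Mybl2 at 308. The letters TTTGAA or TTCGAA, searched as the CHR on both strands, were in 25 of the 34 windows (73.5%) and in 18.2% of all windows. The letters CCAAT, on both strands, were in 25 of the 34 (73.5%) and in 39.2% of all. Both occurred together in 22 of the 34 (64.7%) against 7.47% of all, and in 1 of the genes matches of both kinds overlapped. Neither was found in 6 windows, those of Mad2l1, Birc5, Nusap1, Nuf2, Melk and Mybl2. Among 33 genes of DNA replication and S phase the CHR letters were in 18.2% of windows, and among 74 other mitosis genes in 63.5%. These are matches of letters in a window, not bound sites.

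Stretches of 150 bases upstream of the RefSeq start follow for 8 genes on which the results turn, chosen after their values were seen. CHR and CCAAT letters are in capitals on whichever strand they lie. Each stretch ends at the base before the RefSeq start, except that of Ube2c, which ends 2 bases before it, and that of Ccnb1, which ends 55 bases before it. In the GENCODE annotation some of these genes begin further upstream, and at most 30 bases of the annotated gene were kept in a stretch. Some capitals therefore lie within the annotated gene, among them the CHR letters at -15 in Cdk1 and -29 in Ube2c and the CCAAT at -67 in Ccnb1. In 4 of them the CHR letters stand in the stretch together with CCAAT, once each in Cdc20 and Ube2c, 2 times in Cdk1 and 3 times in Top2a.
Cdk1 (chr10:69352913-69353062, minus strand): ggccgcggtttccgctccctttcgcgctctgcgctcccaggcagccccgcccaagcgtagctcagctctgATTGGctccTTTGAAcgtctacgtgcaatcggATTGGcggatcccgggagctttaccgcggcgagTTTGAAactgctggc
Cdc20 (chr4:118437344-118437493, minus strand): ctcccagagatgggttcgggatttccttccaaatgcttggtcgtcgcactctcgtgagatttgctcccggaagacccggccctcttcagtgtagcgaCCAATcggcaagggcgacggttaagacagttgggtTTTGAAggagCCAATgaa
Ube2c (chr2:164769778-164769927, plus strand): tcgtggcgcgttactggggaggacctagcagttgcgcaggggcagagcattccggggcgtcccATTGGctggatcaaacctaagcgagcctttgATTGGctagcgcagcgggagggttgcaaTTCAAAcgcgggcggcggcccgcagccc
Top2a (chr11:99024190-99024339, minus strand): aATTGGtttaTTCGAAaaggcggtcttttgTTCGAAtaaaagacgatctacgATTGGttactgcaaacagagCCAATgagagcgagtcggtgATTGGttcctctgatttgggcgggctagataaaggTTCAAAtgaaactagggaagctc
The B-type cyclins Ccnb1 and Ccnb2 had 2 and 3 CCAAT boxes in the stretch shown and no CHR letters there. The whole Ccnb2 window holds the CHR letters 2 times outside that stretch, and the whole Ccnb1 window holds none.
Ccnb1 (chr13:100786541-100786690, minus strand): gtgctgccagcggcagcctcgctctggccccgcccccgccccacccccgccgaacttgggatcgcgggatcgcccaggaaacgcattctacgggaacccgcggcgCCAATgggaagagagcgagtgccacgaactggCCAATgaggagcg
Ccnb2 (chr9:70421555-70421704, minus strand): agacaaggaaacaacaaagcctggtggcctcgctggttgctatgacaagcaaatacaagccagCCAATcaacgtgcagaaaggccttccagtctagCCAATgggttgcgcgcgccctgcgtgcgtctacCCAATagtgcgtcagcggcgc
Nek2 departs most from the others in culture below, and Cenpe in the native sorts. They had 1 CCAAT box each in the stretch and no CHR letters anywhere in the window. The windows of Ccnb1, Mad2l1, Birc5, Nusap1, Nuf2, Melk and Mybl2, all called lower at D10 below, held no CHR letters either.
Nek2 (chr1:191821323-191821472, plus strand): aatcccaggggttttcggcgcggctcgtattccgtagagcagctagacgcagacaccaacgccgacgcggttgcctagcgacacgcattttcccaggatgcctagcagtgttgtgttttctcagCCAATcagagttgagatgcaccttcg
Cenpe (chr3:135212413-135212562, plus strand): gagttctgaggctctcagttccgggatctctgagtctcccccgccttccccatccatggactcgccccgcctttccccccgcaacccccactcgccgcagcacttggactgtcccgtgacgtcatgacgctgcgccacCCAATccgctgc

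Values are TPM, the number of transcripts of a gene in each 1000000 transcripts of a library, and are scaled per transcript length. They keep no read depth, so depth and counting error are unknown. Each library held 14381 to 16713 genes at 1 TPM or more, mitochondrial genes took 4.27 to 12.7% of the TPM, and the 2 libraries of a group correlated at Pearson r 0.903 to 0.945 across genes, which are not independent replicates. Of 15 hair cell markers, 13 passed the test as higher at D10 than at D0 in unsorted cultures and 14 in sorted ones. Their sum was 5556 and 5600 TPM in the libraries of the Atoh1 sort, and it reached 2033 to 3858 TPM in those of the other sorts, which are named for supporting cell genes. Log2 differences below are on the log2(TPM + 1) scale, which understates changes of low genes, with standard errors (SE) and Benjamini-Hochberg adjusted p-values from limma over 20463 genes. A call is an adjusted p under 0.05. All 42 genes were among those tested, and all were at 1 TPM or more in both D0 libraries.

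In unsorted cultures 41 of the 42 genes were called lower at D10 than at D0, where 4.34% of all genes tested were called lower. Their summed TPM was 1395 and 1548 at D0 and 77.3 and 57.2 at D10, a mean of 1471 ± 108 against 67.2 ± 14.2 (SD, n = 2 libraries each). The median log2 difference of the 42 genes was -3.58, against -0.08 over all genes tested. Nek2, a kinase of centrosome separation, was the gene not called. In bulk RNA, fewer dividing cells and less of these transcripts per cell cannot be told apart. Mesenchyme markers, 11 genes, also differed in these cultures: they summed to 1016 and 1538 TPM at D0 and to 513 and 449 at D10. Of the 9 that could be tested 1 was called lower, 6 differences were negative and 3 positive, and Twist2 was listed at 0 in all of these libraries. Dcn and Lum gave most of these sums, with Dcn at 737 and 803 TPM at D0 and 279 and 205 at D10. Supporting cell markers, 14 genes, summed to 1627 and 846 TPM at D0 and to 404 and 684 at D10, with 3 of 14 called lower. Markers of other cochlear epithelium, 9 genes, summed to 287 and 399.9 TPM at D0 and to 883 and 1609 at D10. Otoa gave most of that rise, at 62.8 and 48.7 TPM at D0 and 492 and 1292 at D10. Gata2 went the other way, from 25.7 and 14.0 TPM to 2.81 and 1.58. Of the 8 that could be tested 1 was called higher and 1 lower, and 6 differences were positive and 2 negative. The part of any of these cell types in the result was not tested. Immune and endothelial markers stayed within 0.279 to 10.4 TPM in all culture libraries.

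The comparisons of D2, D4 and D10 with D0 share the D0 libraries, and successive steps share a group, so they are not independent of each other.

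**Figure D1:**
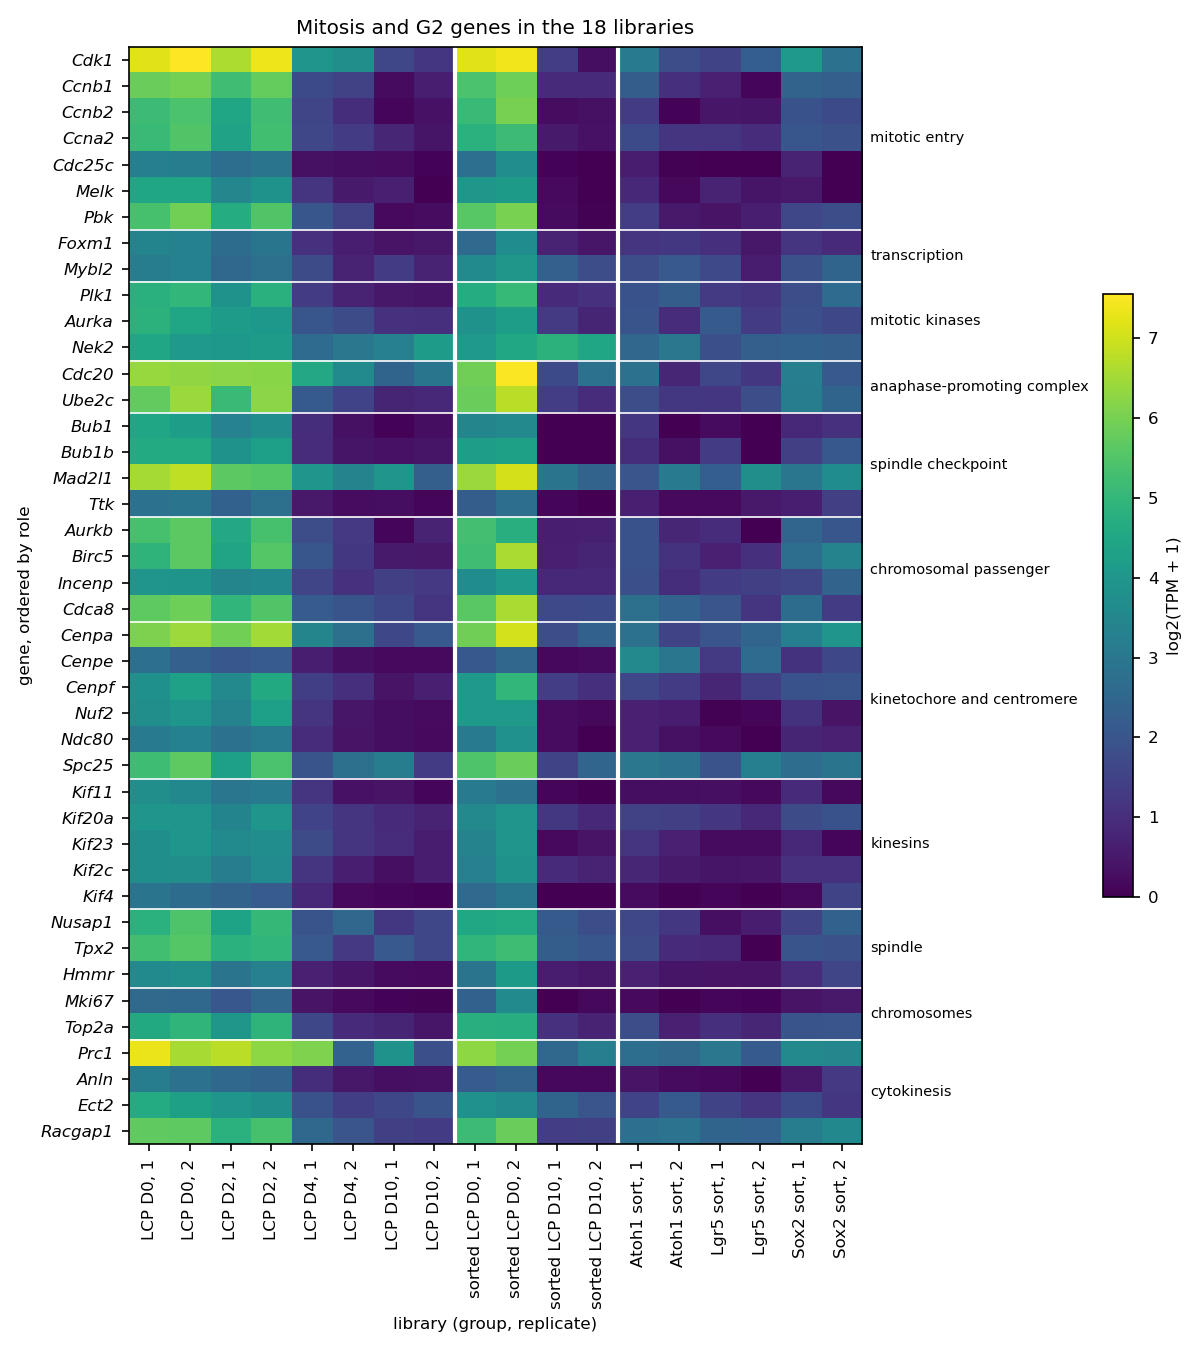
Each of the 42 genes, ordered by role from top to bottom, in each of the 18 libraries, with colour giving log2(TPM + 1). The D0 and D2 columns are bright for nearly every gene, the D4, D10 and native columns are dark, and Nek2 keeps its colour from D0 in the sorted D10 columns.

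The transcripts that drive entry into mitosis were among those that differed most. In each series of values the library numbered 1 comes first. Cdk1, the mitotic kinase, was at 148 and 187 TPM at D0, 97.0 and 163 at D2, 14.7 and 12.2 at D4, and 2.04 and 1.31 at D10. Ccnb1, the cyclin that activates it, was at 57.0 and 61.5 TPM at D0, 36.4 and 54.1 at D2, 2.22 and 1.81 at D4, and 0.169 and 0.554 at D10. For both genes the D0 and D2 libraries lay far above the D4 and D10 libraries with no overlap. From D0 to D10 Cdk1 fell by 5.98 (SE 0.54, adjusted p = 0.000155) and Ccnb1 fell by 5.48 (SE 0.40, adjusted p = 6.21e-05) on the log2 scale. These were the largest differences of the 42 genes, followed by Pbk, a kinase found in dividing cells, which fell by 5.43 (SE 0.40, adjusted p = 6.21e-05). Pbk was at 39.8 and 61.2 TPM at D0, 24.4 and 44.6 at D2, 3.03 and 1.73 at D4, and 0.132 and 0.202 at D10.

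The other genes of mitotic entry were called lower as well. Ccnb2, a second B-type cyclin, was at 35.3 and 41.8 TPM at D0, 20.6 and 36.4 at D2, 2.02 and 0.965 at D4, and 0.0824 and 0.283 at D10. Ccna2, the cyclin of S phase and G2, was at 34.1 and 44.2 TPM at D0, 19.3 and 37.6 at D2, 2.06 and 1.56 at D4, and 0.746 and 0.352 at D10. Replicate 2 was the higher D2 library for both cyclins and the lower D4 library. Ccnb2 fell by 5.06 (SE 0.45, adjusted p = 0.000155) and Ccna2 fell by 4.70 (SE 0.36, adjusted p = 7.16e-05) from D0 to D10. Cdc25c, a phosphatase that activates Cdk1, was low throughout, at 8.53 and 8.29 TPM at D0, 5.62 and 6.44 at D2, 0.255 and 0.207 at D4, and 0.189 and 0.0432 at D10. It fell by 3.08 (SE 0.35, adjusted p = 0.000398) from D0 to D10. Melk, a kinase of proliferating progenitors, was at 20.9 and 20.8 TPM at D0, 10.2 and 13.5 at D2, 1.19 and 0.453 at D4, and 0.570 and 0.0204 at D10. Its D0 libraries differed least from each other among these 7 genes, and it fell by 4.11 (SE 0.36, adjusted p = 0.000155).

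The 2 transcription regulators were low at the start and both were called lower at D10. Foxm1, the forkhead factor of G2 genes, was at 9.66 and 8.89 TPM at D0, 5.40 and 6.66 at D2, 1.10 and 0.542 at D4, and 0.305 and 0.414 at D10. Mybl2, which encodes B-Myb, was at 8.20 and 8.97 TPM at D0, 4.76 and 5.98 at D2, 2.40 and 0.675 at D4, and 1.53 and 0.671 at D10. Replicate 1 of Mybl2 was above replicate 2 by more than 2-fold at both D4 and D10. Foxm1 fell by 2.92 (SE 0.37, adjusted p = 0.000788) and Mybl2 fell by 2.22 (SE 0.45, adjusted p = 0.0121) from D0 to D10. The Mybl2 call was lost when any of 3 libraries was left out, with an adjusted p of 0.0721 without D0 replicate 1, 0.0790 without D0 replicate 2 and 0.0873 without D10 replicate 2.

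Among the mitotic kinases, Plk1 and Aurka fell and Nek2 did not pass the test. Plk1, which acts from mitotic entry to cytokinesis, was at 26.6 and 31.0 TPM at D0, 13.8 and 26.6 at D2, 1.55 and 0.646 at D4, and 0.397 and 0.342 at D10. Aurka, the kinase of spindle poles, was at 28.2 and 20.6 TPM at D0, 16.7 and 15.4 at D2, 3.04 and 2.33 at D4, and 1.11 and 1.03 at D10. For both kinases the D4 libraries lay below the D2 libraries in each replicate. From D0 to D10 Plk1 fell by 4.44 (SE 0.39, adjusted p = 0.000155) and Aurka fell by 3.60 (SE 0.40, adjusted p = 0.000335). Nek2 was at 20.8 and 15.8 TPM at D0, 15.3 and 16.6 at D2, 5.29 and 7.21 at D4, and 8.87 and 16.7 at D10. Its D10 libraries lay above its D4 libraries, and replicate 2 at D10 was within the range of the D0 libraries. The Nek2 difference from D0 to D10 was -0.53 (SE 0.35, adjusted p = 0.442), and that from D0 to D4 was -1.41 (SE 0.35, adjusted p = 0.0507). With the replicate number as a block the latter passed, with an adjusted p of 0.0326.

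The partners of the anaphase-promoting complex, which marks cyclins and securin for destruction, were both called lower at D10, and Cdc20 was not yet called at D4. Cdc20, its mitotic activator, was at 83.2 and 77.2 TPM at D0, 75.1 and 73.4 at D2, 22.7 and 11.2 at D4, and 4.44 and 6.68 at D10. Ube2c, its ubiquitin-conjugating enzyme, was at 52.9 and 83.9 TPM at D0, 33.8 and 74.3 at D2, 3.42 and 1.87 at D4, and 0.727 and 0.821 at D10. At D4 both Cdc20 libraries were still above both Ube2c libraries, although at D0 the ranges overlapped. From D0 to D10 Cdc20 fell by 3.65 (SE 0.69, adjusted p = 0.00863) and Ube2c fell by 5.25 (SE 0.48, adjusted p = 0.000165). The Cdc20 call was lost without D0 replicate 1 (adjusted p = 0.0673) or without D0 replicate 2 (adjusted p = 0.0534). Cdc20 overlaps Elovl1 on the opposite strand, and the library kits do not mark strand, so reads in the overlap cannot be told apart.

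Spindle checkpoint genes fell, with Mad2l1 as the most abundant. Bub1b, which encodes the checkpoint protein BubR1, was at 23.6 and 23.5 TPM at D0, 13.6 and 18.1 at D2, 0.963 and 0.340 at D4, and 0.294 and 0.353 at D10. Mad2l1, which encodes the Cdc20 inhibitor Mad2, was at 91.3 and 113 TPM at D0, 49.0 and 46.4 at D2, 14.8 and 9.37 at D4, and 14.5 and 3.93 at D10. Bub1, a checkpoint kinase, was at 20.6 and 17.5 TPM at D0, 9.10 and 12.1 at D2, 0.998 and 0.258 at D4, and 0.0601 and 0.218 at D10. Mad2l1 replicate 1 was nearly level from D4 to D10 while replicate 2 was lower at D10. From D0 to D10 Bub1b fell by 4.21 (SE 0.43, adjusted p = 0.000216), Mad2l1 fell by 3.55 (SE 0.60, adjusted p = 0.00476) and Bub1 fell by 4.14 (SE 0.38, adjusted p = 0.000165). Ttk, the kinase Mps1, was called lower too, from 6.26 and 6.44 TPM at D0 to 0.220 and 0.0895 at D10.

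The 4 genes of the chromosomal passenger complex, which corrects wrong attachments of chromosomes to the spindle, were all called lower at D10. Aurkb, its kinase, was at 40.2 and 49.0 TPM at D0, 22.6 and 40.2 at D2, 2.48 and 1.41 at D4, and 0.101 and 0.641 at D10. Birc5, which encodes survivin, was at 29.2 and 49.2 TPM at D0, 20.4 and 46.4 at D2, 3.03 and 1.33 at D4, and 0.461 and 0.423 at D10. Incenp, the scaffold, was at 14.2 and 14.0 TPM at D0, 9.81 and 10.6 at D2, 1.96 and 1.13 at D4, and 1.68 and 1.37 at D10. The D4 and D10 libraries of Incenp overlapped, whereas those of Aurkb and Birc5 did not. From D0 to D10 Aurkb fell by 5.08 (SE 0.47, adjusted p = 0.000165), Birc5 fell by 4.75 (SE 0.53, adjusted p = 0.000376) and Incenp fell by 2.58 (SE 0.37, adjusted p = 0.00178). Cdca8, which encodes borealin, was called lower as well, from 49.9 and 58.6 TPM at D0 to 2.10 and 1.20 at D10.

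All 6 kinetochore and centromere genes were called lower at D10. Cenpa, the histone variant of centromeres, was at 65.8 and 86.4 TPM at D0, 60.3 and 89.9 at D2, 9.78 and 5.93 at D4, and 2.13 and 3.32 at D10. Cenpe, a kinesin that carries chromosomes along the spindle, was at 5.80 and 3.99 TPM at D0, 3.17 and 3.47 at D2, 0.556 and 0.229 at D4, and 0.135 and 0.140 at D10. The D0 and D2 ranges of Cenpa overlapped, and those of Cenpe did not. Cenpa fell by 4.38 (SE 0.50, adjusted p = 0.000403) from D0 to D10 and Cenpe fell by 2.36 (SE 0.42, adjusted p = 0.00644), a call that was lost without D0 replicate 1 (adjusted p = 0.0676). Nuf2, a part of the complex that binds microtubules, was at 12.4 and 14.6 TPM at D0, 9.49 and 18.2 at D2, 1.20 and 0.362 at D4, and 0.221 and 0.164 at D10. Spc25, of the same complex, was at 36.2 and 49.9 TPM at D0, 18.1 and 41.4 at D2, 2.87 and 5.90 at D4, and 7.97 and 1.53 at D10. The D10 values of Spc25 spanned its D4 values. It fell by 3.19 (SE 0.63, adjusted p = 0.0107) from D0 to D10, and the call was lost without D0 replicate 1 (adjusted p = 0.0559), D0 replicate 2 (0.0814) or D10 replicate 2 (0.0822). Cenpf was at 12.8 and 19.2 TPM at D0, 10.8 and 22.8 at D2, 1.62 and 1.05 at D4, and 0.313 and 0.575 at D10, and Ndc80 was called lower too.

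Kinesins, spindle genes and chromosome genes fell together. Kif11, the kinesin that separates the spindle poles, was at 12.4 and 10.4 TPM at D0, 6.81 and 7.42 at D2, 1.25 and 0.289 at D4, and 0.316 and 0.106 at D10. Top2a, the topoisomerase that untangles chromosomes, was at 23.2 and 29.6 TPM at D0, 14.9 and 29.3 at D2, 2.11 and 0.851 at D4, and 0.715 and 0.368 at D10. Mki67, the proliferation marker that coats mitotic chromosomes, was lower per length, at 5.15 and 4.75 TPM at D0, 3.17 and 4.65 at D2, 0.306 and 0.152 at D4, and 0.0586 and 0.0318 at D10. For these 3 genes replicate 1 was the lower library at D2 and the higher at D4. From D0 to D10 Kif11 fell by 3.36 (SE 0.33, adjusted p = 0.000179), Top2a fell by 4.15 (SE 0.43, adjusted p = 0.000244) and Mki67 fell by 2.51 (SE 0.34, adjusted p = 0.00142). All 5 kinesins, and the spindle genes Nusap1, Tpx2 and Hmmr, were called lower at D10. Tpx2, which brings Aurka to the spindle, was at 37.6 and 45.9 TPM at D0, 27.4 and 30.4 at D2, 3.35 and 1.41 at D4, and 3.29 and 2.04 at D10, so that its D4 libraries spanned its D10 libraries.

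The 4 cytokinesis genes fell, 1 of them with replicates far apart. Anln, which encodes the ring protein anillin, was at 8.05 and 6.26 TPM at D0, 4.74 and 4.32 at D2, 0.987 and 0.408 at D4, and 0.249 and 0.265 at D10. Prc1, which bundles microtubules of the central spindle, was at 159 and 94.5 TPM at D0, 109 and 76.8 at D2, 67.4 and 4.20 at D4, and 13.4 and 2.62 at D10. The D4 libraries of Prc1 differed 16.0-fold, the widest gap of the 42 genes at that day. Anln fell by 2.69 (SE 0.30, adjusted p = 0.000373) and Prc1 fell by 4.10 (SE 0.94, adjusted p = 0.0212) from D0 to D10. The Prc1 call was lost without D0 replicate 1 (adjusted p = 0.141), D0 replicate 2 (0.0752) or D10 replicate 2 (0.154), and Prc1 overlaps Rccd1 on the opposite strand. Ect2, the exchange factor that activates RhoA at the cleavage site, was at 24.1 and 18.7 TPM at D0, 14.5 and 12.5 at D2, 2.74 and 1.66 at D4, and 2.10 and 2.93 at D10. Its D4 and D10 libraries overlapped. Racgap1, of the centralspindlin complex, was at 51.6 and 50.5 TPM at D0, 27.6 and 40.2 at D2, 4.86 and 2.96 at D4, and 1.72 and 1.46 at D10. From D0 to D10 it fell by 4.33 (SE 0.31, adjusted p = 6.21e-05).

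Most of the fall lay between D2 and D4. For 42 of 42 genes the step from D2 to D4 was the largest of the 3 steps in group means on the log2(TPM + 1) scale. The added 1 shrinks later steps of genes near 1 TPM, and single replicates can differ. In replicate 1 Prc1 went from 109 TPM at D2 to 67.4 at D4 and 13.4 at D10, so its larger step came after D4. By TPM without the added 1 that was also so for Ccnb2, among others, at 20.6, 2.02 and 0.0824 TPM in replicate 1. Against D2, 34 genes were called lower at D4, where 0.445% of all genes tested were called lower, and the median log2 difference was -2.51 against -0.04 over all genes. The D4 libraries lay below the D2 libraries without overlap for all 42 genes, and within each replicate number all 42 were lower at D4 than at D2. The share of all genes tested without such overlap was not counted for this step. It was 18.5% lower at D2 than at D0 and 13.6% lower at D10 than at D4. Ccnb1 differed most and fell by 3.91 (SE 0.40, adjusted p = 0.00282), followed by Ube2c, which fell by 3.84 (SE 0.48, adjusted p = 0.00516), and Ccnb2, which fell by 3.55 (SE 0.45, adjusted p = 0.00516). Cdk1 fell by 3.14 (SE 0.54, adjusted p = 0.0230), a call that was lost without D2 replicate 1 (adjusted p = 0.0664), D2 replicate 2 (0.205) or D4 replicate 2 (0.245). The 8 genes that did not pass were Kif4, Spc25, Cenpe, Nek2, Mad2l1, Mybl2, Cdc20 and Prc1, with differences from -1.24 (SE 0.35) for Nek2 to -2.46 (SE 0.63) for Spc25. The adjusted p of Kif4, a chromosome kinesin, was 0.104 and that of Spc25 was 0.180, the smallest of these 8. Kif4 was at 4.33 and 3.54 TPM at D2 and at 0.798 and 0.143 at D4. Without D4 replicate 1, Prc1 passed, with a difference of -4.16 and an adjusted p of 0.0185. The number called rested on single libraries: it was 2 without D2 replicate 2 and 3 without D4 replicate 2, and none passed when the 4 libraries were fitted alone.

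By D4 the fall against D0 was called for 39 genes, where 2.29% of all genes tested were called lower. Nek2, Cdc20 and Prc1 were the exceptions, with an adjusted p of 0.0507, 0.115 and 0.169. Ccnb1 fell by 4.32 (SE 0.40, adjusted p = 0.000548), the largest difference at that day. None of the 42 was called when only the D0 and D4 libraries were fitted, a fit in which no gene at all passed.

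Before that step no gene passed the test. At D2 none of the 42 genes was called by limma against D0, none had an unadjusted p under 0.05, and 0.0342% of all genes tested were called lower. The D2 values were lower on average for 41 genes, with a median log2 difference of -0.45 against -0.02 over all genes. In 27 genes (64.3%) both D2 libraries lay below both D0 libraries, against 18.5% of all genes tested. Mad2l1 had the lowest difference, -1.07 (SE 0.60), then Bub1 with -0.80 (SE 0.38) and Melk with -0.77 (SE 0.36). At the other end Cenpf was at 0.01 (SE 0.42), Nuf2 at -0.03 (SE 0.36) and Cenpa at -0.03 (SE 0.50), and all 6 had an adjusted p of 1.00. Within replicate 1, all 42 genes were lower at D2 than at D0, and their summed TPM was 65.5% of that at D0. Within replicate 2, 37 were lower and Nek2, Cenpa, Cenpf, Nuf2 and Kif20a were higher, and the sum was 82.1% of that at D0.

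After D4 again no gene passed. At D10 none was called against D4 by limma, where 0.00977% of all genes tested were called lower. An unadjusted p under 0.05 was met by 9 of the 42 and by 937 of all 20463 genes tested. The D10 mean was lower for 38 genes, with a median log2 difference of -0.54 against 0.00 over all genes, and for 30 genes (71.4%) both D10 libraries lay below both D4 libraries, against 13.6% of all genes tested. Cdk1 differed most, by -2.44 (SE 0.54, adjusted p = 0.387), then Pbk by -1.51 (SE 0.40, adjusted p = 0.619) and Cdc20 by -1.40 (SE 0.69, adjusted p = 1.00). The highest were Nek2 at 0.88 (SE 0.35), Tpx2 at 0.16 (SE 0.41) and Ect2 at 0.15 (SE 0.35), each with an adjusted p of 1.00. Nek2 was the only 1 of the 42 whose D10 libraries both lay above its D4 libraries. D10 replicate 1 was sequenced on another day than the D0, D2 and D4 libraries of its number, according to the labels, and within replicate 2, which shares its days of extraction and sequencing, 37 of 42 genes were lower at D10 than at D4.

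The size of the step from D2 to D4 was also tested against that of the step before it. The second step was more negative for all 42 genes, by a median of 2.06 on the log2 scale, but none was called by limma. An unadjusted p under 0.05 was met by 34 of the 42 and by 393 of all 20463 genes tested. After adjustment 0.0147% of all genes tested were called in either direction. Ccnb1 had the largest excess, -3.51 (SE 0.69, adjusted p = 0.612), then Ube2c with -3.44 (SE 0.84, adjusted p = 0.980) and Birc5 with -3.09 (SE 0.92, adjusted p = 1.00). The smallest were Mybl2 with -0.82 (SE 0.78), Mad2l1 with -0.86 (SE 1.05) and Nek2 with -1.07 (SE 0.61).

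**Figure D2:**
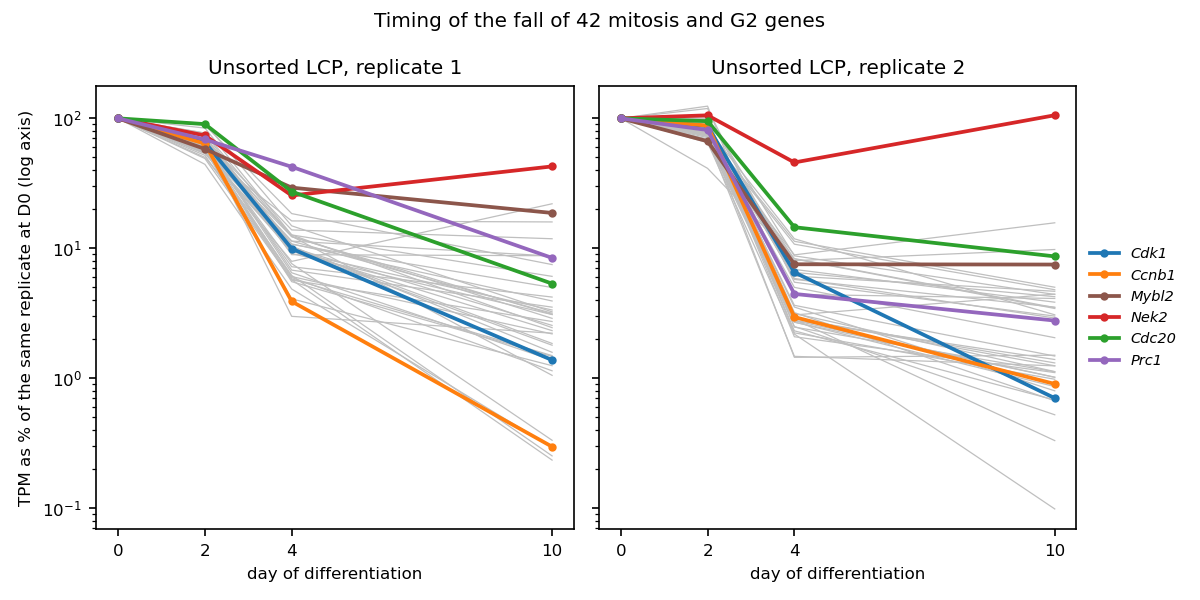
TPM of each of the 42 genes in unsorted cultures as a percentage of the same replicate's D0 value (log axis) against day of differentiation, replicate 1 on the left and replicate 2 on the right, with 6 genes in colour and the rest in grey. In both panels the lines drop between D2 and D4, and Nek2 ends at 42.6% in replicate 1 and 105.6% in replicate 2.

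Relative to D0, the median gene was at 72.0% at D2, 7.48% at D4 and 2.61% at D10 in unsorted cultures. At D10, 37 of the 42 genes were under 10% of their D0 mean and 27 were under 1 TPM in both libraries. The lowest were Pbk at 0.331%, Ccnb2 at 0.474%, Ccnb1 at 0.610% and Bub1 at 0.729%. The highest were Nek2 at 69.8%, Mybl2 at 12.8%, Ect2 at 11.7% and Spc25 at 11.0%, and Incenp at 10.8% was the fifth above 10%. Between replicates the residual of Spc25 ranged from 3.07% to 22.0% and that of Mybl2 from 7.49% to 18.7%, so their places in this order do not stand apart from those of neighbours such as Mad2l1, at 3.49% and 15.9%. Nek2 was above every other gene in both replicates. Most abundant at D10 were Nek2, at a mean of 12.8 TPM, Mad2l1 and Prc1.

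**Figure D3:**
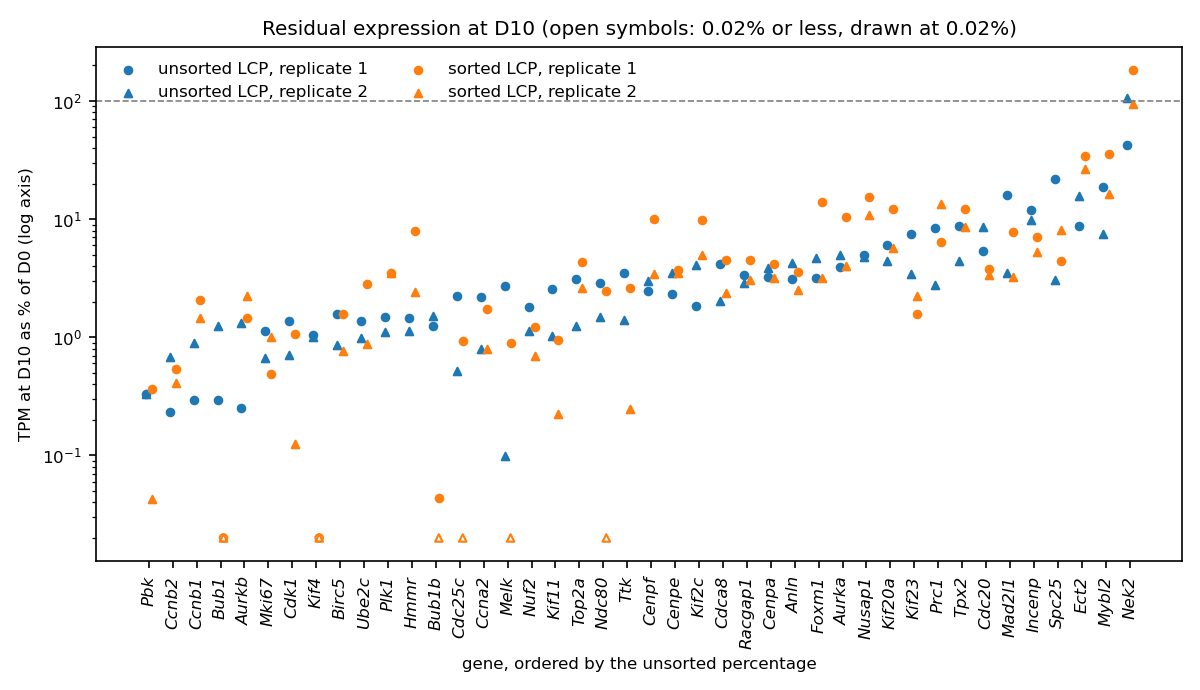
TPM at D10 as a percentage of D0 of the same replicate (log axis) for each gene, ordered by the unsorted percentage, in unsorted (blue) and sorted (orange) cultures, with circles for replicate 1 and triangles for replicate 2. Nek2, at the right, lies near the dashed line at 100%, while Pbk and the B-type cyclins, at the left, lie below 1% in unsorted cultures.

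These transcripts also fell from D0 to D10 in sorted cultures. The libraries compared were not those of the unsorted comparison. All 18 libraries were in 1 fit, however, so both tests share its estimate of the spread and are not independent. Of the 42 genes 41 were called lower, where 10.7% of all genes tested were called lower, and the median log2 difference was -3.35 against 0.02 over all genes. Their summed TPM was 1157 and 1759 at D0 and 81.8 and 74.3 at D10. Cdk1 went from 148 and 168 TPM to 1.58 and 0.209, and fell by 6.49 (SE 0.54, adjusted p = 4.39e-05). Pbk went from 46.9 and 64.8 TPM to 0.171 and 0.0275, and fell by 5.68 (SE 0.40, adjusted p = 2.37e-05). Ccnb2 went from 33.7 and 63.8 TPM to 0.181 and 0.263, and fell by 5.28 (SE 0.45, adjusted p = 5.02e-05). These 3 genes, like the other 38 called, had D10 libraries wholly below their D0 libraries, a trait that was not counted over all genes here. Birc5 went from 36.8 and 95.2 TPM to 0.575 and 0.722, and fell by 5.19 (SE 0.53, adjusted p = 0.000112). Ccnb1 went from 41.5 and 58.4 TPM to 0.863 and 0.858, and fell by 4.76 (SE 0.40, adjusted p = 4.56e-05). Foxm1 was at 5.03 and 11.7 TPM at sorted D0 and at 0.700 and 0.370 at sorted D10, with replicate 2 the higher at the start and the lower at the end. Top2a was at 25.4 and 24.9 TPM and at 1.09 and 0.653, and Mki67 at 4.12 and 11.0 and at 0.0201 and 0.111, so the 2 chromosome genes also lost most of their transcript. Bub1 and Kif4 were listed at 0 in both sorted D10 libraries, and Bub1b at 0.00762 and 0. Mesenchyme markers summed to 1623 and 663 TPM at sorted D0 and to 64.1 and 49.0 at sorted D10, with 4 of the 9 that could be tested called lower and Twist2 listed at 0 in all 4 libraries, and their part in the result was not tested.

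Nek2, Ect2 and Mybl2 had the smallest differences in sorted cultures. Nek2 was at 15.5 and 21.7 TPM at sorted D0 and at 28.2 and 20.6 at sorted D10, with overlapping ranges and a difference of 0.37 (SE 0.35, adjusted p = 0.481). Ect2 was at 13.1 and 11.3 TPM and at 4.42 and 3.00, and fell by 1.50 (SE 0.35, adjusted p = 0.00888). Mybl2 was at 11.1 and 15.1 TPM and at 3.93 and 2.44, and fell by 1.76 (SE 0.45, adjusted p = 0.0147). Both of the latter had D10 libraries below their D0 libraries. The Ect2 call was lost without sorted D10 replicate 2 (adjusted p = 0.0689), and the Mybl2 call without sorted D0 replicate 2 (0.0824) or sorted D10 replicate 2 (0.0982). Prc1, which fell by 3.24 (SE 0.94, adjusted p = 0.0261), lost its call without any 1 of the 4 libraries, at an adjusted p of 0.0660 to 0.147.

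No gene was called between sorted and unsorted cultures, which does not show that they were alike. The change from D0 to D10 was tested between them, and none of the 42 was called by limma. An unadjusted p under 0.05 was met by 1 of the 42 and by 2267 of all 20463 genes tested. After adjustment 0.205% of all genes tested were called in either direction. Ect2 differed most, with a fall smaller by 1.17 in sorted cultures (SE 0.49, adjusted p = 0.408), then Nusap1 by 1.13 (SE 0.55, adjusted p = 0.484) and Nek2 by 0.91 (SE 0.49, adjusted p = 0.534). Nusap1, which binds spindle microtubules, was at 21.7 and 23.5 TPM at sorted D0 and at 3.37 and 2.52 at sorted D10, above its unsorted D10 values of 1.36 and 2.07. At the other end were Cdc20 at -0.81 (SE 0.98), Mad2l1 at -0.53 (SE 0.85) and Cdk1 at -0.51 (SE 0.76). At D0 none was called between sorted and unsorted cultures, where 0.0782% of all genes tested were called. An unadjusted p under 0.05 by limma was met by 1 of the 42 and by 1948 of all 20463 genes tested. The lowest there were Prc1 at -0.83 (SE 0.94), Bub1 at -0.81 (SE 0.38) and Ect2 at -0.76 (SE 0.35), and the highest Birc5 at 0.63 (SE 0.53), Mybl2 at 0.55 (SE 0.45) and Cenpf at 0.49 (SE 0.42). In the sorted D0 libraries Prc1 was at 75.5 and 62.5 TPM, Bub1 at 10.0 and 10.8, Cenpf at 16.0 and 31.0 and Cdc20 at 59.1 and 182. Replicate 2 carried the higher values of Birc5, Cenpf and Cdc20, and both Prc1 libraries were below both unsorted ones.

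At D10 none of the 42 was called between sorted and unsorted cultures by limma, where 6.22% of all genes tested were called in either direction. An unadjusted p under 0.05 was met by 2 of the 42 and by 4847 of all 20463 genes tested. Mybl2 was highest at 1.00 (SE 0.45, adjusted p = 0.204), then Nek2 at 0.93 (SE 0.35, adjusted p = 0.134) and Cenpf at 0.69 (SE 0.42, adjusted p = 0.338), and for these 3 genes both sorted libraries were above both unsorted ones. Nek2 passed without D10 replicate 2, at 1.35 with an adjusted p of 0.0458. The lowest were Cdk1 at -0.59 (SE 0.54), Kif23 at -0.47 (SE 0.35) and Mad2l1 at -0.47 (SE 0.60). At sorted D10 Cenpf was at 1.61 and 1.07 TPM, Mad2l1 at 6.56 and 4.26 and Cdc20 at 2.22 and 6.07, and for Mad2l1 both values lay between the unsorted ones. Kif23, a kinesin of the central spindle, was at 0.943 and 0.505 TPM in unsorted and at 0.145 and 0.323 in sorted cultures at D10.

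In native cells of postnatal day 2 the transcripts were scarce. Summed over the 42 genes, the TPM was 113 and 77.7 for the Atoh1 sort, 57.1 and 66.2 for the Lgr5 sort, and 142 and 147 for the Sox2 sort. At D0 of culture the median gene was 17.8-fold above its mean over the 3 native sorts, from 1.07-fold for Cenpe to 52.8-fold for Melk. Both libraries reached 1 TPM for 20 of the 42 genes with Atoh1, 15 with Lgr5 and 29 with Sox2, against 42 at D0 and 14 at D10 of unsorted culture. Cdk1 was at 7.69 and 2.53 TPM with Atoh1, 1.90 and 3.81 with Lgr5 and 16.0 and 6.15 with Sox2. Ccna2 was at 2.25 and 1.26 TPM, 1.25 and 0.953, and 3.04 and 2.63 in that order, and Top2a at 2.55 and 0.607, 1.07 and 0.765, and 2.90 and 2.97. For these 3 genes both Sox2 libraries were above both Lgr5 libraries. Foxm1 was at 1.18 and 1.35 TPM, 1.07 and 0.415, and 1.20 and 0.912, and Mybl2 at 2.51 and 3.31, 2.19 and 0.514, and 2.68 and 4.44, with overlap between the Atoh1 and Sox2 sorts for both regulators. Mki67 was at most 0.444 TPM in the 6 native libraries. Mad2l1, the most abundant of the 42 genes in the Lgr5 sort, was at 3.01 and 7.65 TPM with Atoh1, 3.81 and 12.3 with Lgr5 and 6.84 and 11.7 with Sox2, with overlapping ranges. By mean, the Sox2 sort was highest for 33 genes and the Lgr5 sort lowest for 36.

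Sorted D0 cultures were set against the native Lgr5 sort, and 41 of the 42 genes were called higher in culture, where 3.85% of all genes tested were called higher. The median log2 difference was 3.44 against -0.09 over all genes. Cdk1 was at 1.90 and 3.81 TPM in the Lgr5 sort and higher in sorted D0 cultures by 5.41 (SE 0.54, adjusted p = 0.000106). Cdc20 was at 2.02 and 1.33 TPM and higher by 5.30 (SE 0.69, adjusted p = 0.000546), and Pbk was at 0.306 and 0.566 TPM and higher by 5.30 (SE 0.40, adjusted p = 1.97e-05). None of these genes overlapped between the groups. Cenpe was the gene not called: it was at 1.42 and 5.18 TPM in the Lgr5 sort and at 3.21 and 4.61 in sorted D0 cultures, a difference of 0.33 (SE 0.42, adjusted p = 0.737). Ttk was at 3.69 and 5.62 TPM in sorted D0 cultures and at 0.140 and 0.439 in the Lgr5 sort. The next smallest differences were those of Ttk, 2.12 (SE 0.33, adjusted p = 0.00166), and Nek2, 2.20 (SE 0.35, adjusted p = 0.00183). Cell type markers also differed between these groups. Hair cell markers summed to 43.7 and 30.4 TPM in sorted D0 cultures, with Slc26a5 listed at 0 in both, and to 2033 and 3858 in the Lgr5 sort, with 13 of 15 called lower in culture. Neuron markers summed to 9.43 and 1.97 TPM against 133 and 190, with 4 of 10 called lower. Of the mesenchyme markers that could be tested, 3 of 9 were called lower and 2 higher, at sums of 1623 and 663 TPM against 421 and 712. Of the supporting cell markers 3 of 14 were called lower and 1 higher, at sums of 1156 and 295 TPM against 3759 and 799. The part of these cell types in the result was not tested.

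Few of the genes were called between unsorted D10 cultures and native cells. Against the mean of the 3 native sorts 3 of the 42 were called lower and 1 higher, where 10.6% of all genes tested were called lower and 4.68% higher. The share called lower among the 42 genes was thus below that of all genes, but the levels leaned lower. The difference was negative for 35 of the 42, with a median of -0.53 against -0.15 over all genes. By TPM the median gene was at 42.3% of its native mean, and 34 were under 100%. Cenpe was at 10.8 and 6.77 TPM in cells sorted with Atoh1, 1.42 and 5.18 with Lgr5 and 1.15 and 2.13 with Sox2, and at D10 it was lower by 2.01 (SE 0.35, adjusted p = 0.00278). Racgap1 was at 5.73 and 6.34 TPM with Atoh1, 4.36 and 4.17 with Lgr5 and 8.20 and 10.6 with Sox2, and lower at D10 by 1.49 (SE 0.25, adjusted p = 0.00253). Plk1 was at 2.75 and 3.72 TPM, 1.42 and 1.22, and 2.52 and 5.27 in the same order, and lower at D10 by 1.39 (SE 0.32, adjusted p = 0.0125). All 6 native libraries were above both D10 libraries for these 3 genes. Markers were called both ways in the same comparison, counted among those that could be tested. Called lower at D10 were 5 of 14 of supporting cells, 5 of 9 of mesenchyme, 3 of 6 of glia and 5 of 10 of neurons. So were 2 of 5 of erythroid cells, 3 of 15 of hair cells, 3 of 8 of other epithelium and 1 of 2 of immune cells. Called higher were 1 of supporting cells, 1 of mesenchyme, 2 of hair cells, 2 of other epithelium and 5 of 12 housekeeping genes. Supporting cell markers summed to 404 and 684 TPM at D10 and to 535 to 3759 over the native libraries, and neuron markers to 71.4 and 202 at D10 and to 133 to 338. Mesenchyme sums were 513 and 449 TPM at D10 and 172 to 712 in native libraries, glia sums 116 and 103 against 101 to 1160, and erythroid sums 0.453 and 0.160 against 1.37 to 281. At D10 Twist2, Pmp2, Stmn2 and Hbb-bt of the lists summed here were listed at 0 in both libraries. The part of these cell types in the result was not tested.

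Nek2 was the gene called higher at D10, and the Plk1 and Nek2 calls rested on single libraries. Nek2 was at 4.67 and 7.09 TPM with Atoh1, 2.62 and 3.93 with Lgr5 and 4.08 and 3.91 with Sox2, below both D10 libraries, and the difference was 1.33 (SE 0.29, adjusted p = 0.00898). It was 0.92 (adjusted p = 0.108) without D10 replicate 2. Plk1 was not called without D10 replicate 1 (adjusted p = 0.0805) or without D10 replicate 2 (0.0682). The next highest differences were 0.73 (SE 0.57) for Cdc20 and 0.62 (SE 0.33) for Tpx2, neither of which passed. Cdc20 was at 6.06 and 0.756 TPM with Atoh1, 2.02 and 1.33 with Lgr5 and 8.31 and 3.35 with Sox2, and Tpx2 at 2.39 and 0.877, 0.843 and 0.0169, and 2.87 and 2.64. For both genes 1 or more native libraries lay within or above the range of the D10 libraries. Cdk1, at -1.21 (SE 0.44, adjusted p = 0.0855), passed only without replicate 2 of the Atoh1 sort among the libraries left out, at -1.42 with an adjusted p of 0.0479. With a pseudocount of 0.1 in place of 1, 9 genes were called lower.

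Sorted D10 cultures were compared with the native Atoh1 sort. Of the 42 genes 2 were called lower and 1 higher, where 7.34% of all genes tested were called lower and 4.51% higher. Cenpe, at 0.119 and 0.162 TPM in sorted D10 cultures, was lower by 3.07 (SE 0.42, adjusted p = 0.000881), and both Atoh1 libraries lay above both cultures. Racgap1, at 1.60 and 1.71 TPM, was lower by 1.41 (SE 0.31, adjusted p = 0.0130), a call lost without any 1 of the 4 libraries, at an adjusted p of 0.0561 to 0.0824. Nek2 was higher by 1.89 (SE 0.35, adjusted p = 0.00531), a call lost without sorted D10 replicate 1 (adjusted p = 0.0511) or Atoh1 replicate 1 (0.0504). Cdk1 was lower by 1.65 without passing (SE 0.54, adjusted p = 0.0682), and the highest after Nek2 were Tpx2 at 0.80 (SE 0.41) and Nusap1 at 0.56 (SE 0.39). Tpx2 was at 3.72 and 3.07 TPM in sorted D10 cultures, and Nusap1 at 2.05 and 1.31 in the Atoh1 sort, so for both the cultures lay above the native libraries. Here too markers were called lower in culture, 5 of 14 of supporting cells, 4 of 9 of mesenchyme, 2 of 6 of glia, 4 of 10 of neurons and 4 of 5 of erythroid cells. So were 1 of 15 of hair cells, 2 of 8 of other epithelium and 1 of 3 of endothelium. Called higher were 2 of hair cells, 1 of other epithelium and 3 of 12 housekeeping genes. The part of these cell types was not tested.

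**Figure D4:**
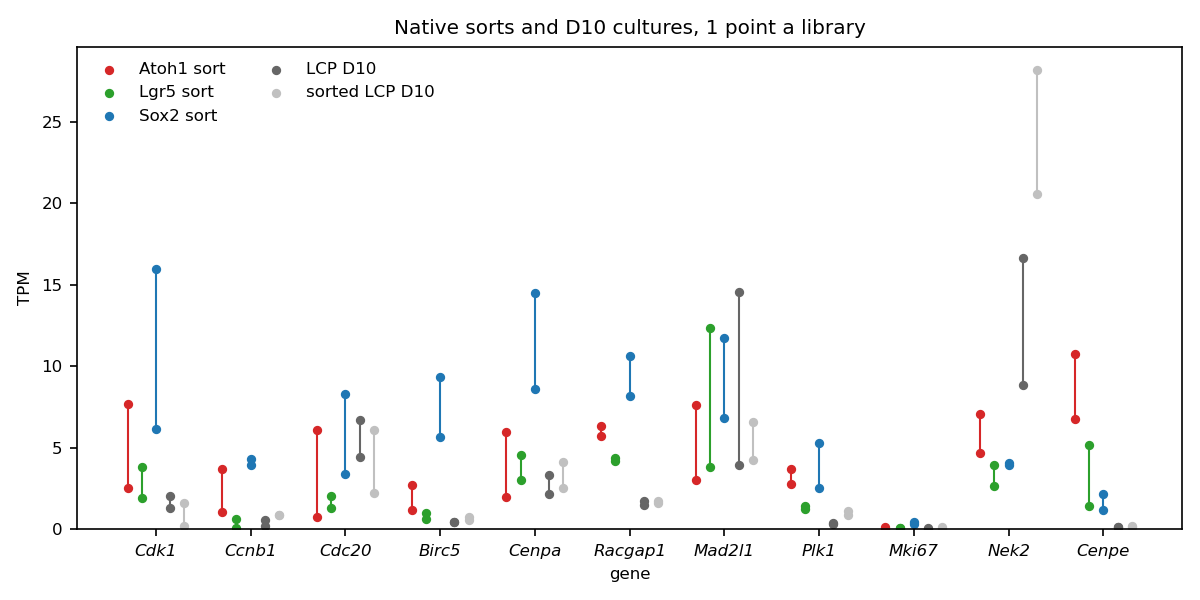
TPM of 11 genes in the 2 libraries of each native sort (Atoh1 red, Lgr5 green, Sox2 blue) and of D10 cultures (unsorted dark grey, sorted light grey), 1 point a library, joined within a group. For Cdk1, Birc5 and Racgap1 the Sox2 libraries lie above the Lgr5 libraries, Nek2 is highest in the D10 cultures and Cenpe in the Atoh1 sort.

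The comparison of native hair cells with native supporting cells gave no call among the 42. Marker calls were few there too. Of 15 hair cell markers all were higher on average in the Atoh1 sort, with a median of 0.98, but 1 was called. Of 14 supporting cell markers none was called lower by limma (3 at an unadjusted p under 0.05), with a median of -0.80. The lack of calls thus says little about hair cells against supporting cells. Of the 42 none was called by limma between the Atoh1 sort and the Lgr5 and Sox2 sorts averaged, where 0.821% of all genes tested were called in either direction. An unadjusted p under 0.05 was met by 2448 of all 20463 genes tested and by 1 of the 42. That gene was Cenpe, higher in both Atoh1 libraries than in the 4 others by 1.60 (SE 0.37, adjusted p = 0.0756). Without replicate 2 of the Lgr5 sort it passed, at 1.93 with an adjusted p of 0.0160. The next were Cdca8 at 0.80 (SE 0.41) and Kif23 at 0.57 (SE 0.30), and the lowest were Cenpa at -0.74 (SE 0.43), Ube2c at -0.65 (SE 0.42) and Mad2l1 at -0.60 (SE 0.52). Cenpa was at 5.99 and 1.96 TPM with Atoh1, 3.01 and 4.52 with Lgr5 and 8.62 and 14.5 with Sox2. Ube2c was at 2.44 and 1.33 TPM, 1.27 and 2.55, and 7.95 and 4.43 in that order, with the Sox2 libraries the highest for both genes. Cdca8 was at 5.87 and 4.19 TPM with Atoh1, 2.96 and 1.22 with Lgr5 and 5.35 and 1.47 with Sox2, and Kif23 at 1.22 and 0.610, 0.175 and 0.172, and 0.779 and 0.0916, each with an overlap between the Atoh1 and Sox2 libraries.

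The Lgr5 and Sox2 sorts, both taken as supporting cells, differed in level without a call. Of the 42 genes none was called by limma, where 0.503% of all genes tested were called lower in the Lgr5 sort. An unadjusted p under 0.05 was met by 20 of the 42 and by 1340 of all 20463 genes tested. The Lgr5 mean on the log2 scale was lower for 40 genes, with a median difference of -0.82 against -0.03 over all genes, and for 30 genes (71.4%) both Lgr5 libraries lay below both Sox2 libraries, against 19.6% of all genes tested. Birc5 was at 0.625 and 1.01 TPM in the Lgr5 sort and at 5.68 and 9.36 in the Sox2 sort, a difference of -2.20 (SE 0.53, adjusted p = 0.145). Ccnb1 was at 0.607 and 0.0752 TPM against 4.27 and 3.91, a difference of -1.95 (SE 0.40, adjusted p = 0.0648). Aurkb was at 0.934 and 0 TPM against 4.51 and 3.07, a difference of -1.77 (SE 0.47, adjusted p = 0.222). For these 3 genes the Lgr5 libraries stood apart below the Sox2 libraries. Cenpe, at 0.58 (SE 0.42), and Melk, at 0.33 (SE 0.36), were the 2 genes with a higher Lgr5 mean, and Aurka was next at -0.01 (SE 0.40). Melk was at 0.660 and 0.342 TPM in the Lgr5 sort and at 0.419 and 0 in the Sox2 sort, and Aurka at 3.43 and 1.47 against 2.57 and 2.12, both with overlapping libraries.

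Markers of some other cells also differed between these 2 sorts. Among mesenchyme, immune, endothelial and erythroid markers none was called by limma, with 1 of mesenchyme at an unadjusted p under 0.05. Glia markers, 7 genes, summed to 101 and 173 TPM in the Lgr5 sort and to 567 and 1160 in the Sox2 sort, with 4 of the 6 that could be tested called lower in the Lgr5 sort and Pmp2 listed at 0 in both Lgr5 libraries. Neuron markers, 10 genes, summed to 133 and 190 TPM and to 324 and 338, with 2 of 10 called lower and Prph listed at 0 in Lgr5 replicate 2. Markers of other cochlear epithelium, 9 genes, summed to 200.4 and 682 TPM and to 633 and 2157, so that the sums of the sorts overlapped. Of the 8 that could be tested 1 was called lower, and Otx2 was listed at 0 in both Lgr5 libraries. Oc90, a gene of the otoconia, gave most of the Sox2 sums, at 289 and 1762 TPM against 7.57 and 34.5 in the Lgr5 sort. The part of these cells in the level of the 42 genes was not tested.

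Most other genes of mitosis and of S phase were also called lower. Of 91 other mitosis genes 67 (73.6%) were called lower at D10 than at D0 in unsorted cultures and none higher, against 4.34% of all genes tested, with a median log2 difference of -2.30. Cdca3, a trigger of mitotic entry, fell by 4.74 (SE 0.52, adjusted p = 0.000354) and Pimreg, a mitotic regulator, fell by 4.65 (SE 0.44, adjusted p = 0.000165). From D2 to D4, 29 of the 91 (31.9%) were called lower, against 0.445% of all genes. Of 41 genes of DNA replication and S phase 36 (87.8%) were called lower from D0 to D10, with a median of -2.22. From D2 to D4, 4 (9.76%) were called lower, although 40 had a negative difference, with a median of -1.32. At that step 38 had an unadjusted p under 0.05 by limma, as did 1250 of all 20463 genes tested. By D4, 30 (73.2%) were called lower than at D0, against 2.29% of all genes. Uhrf1, which maintains DNA methylation at replication, fell by 4.37 (SE 0.39, adjusted p = 0.000155), and Rrm2, of the enzyme that makes deoxynucleotides, fell by 4.33 (SE 0.40, adjusted p = 0.000165).

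The complexes that control or destroy mitotic proteins were counted too. Of 11 genes of the MuvB and DREAM complexes and their E2F partners 4 (36.4%) were called lower from D0 to D10, with a median of -0.73. Rbl1, the pocket protein p107, fell by 2.27 (SE 0.35, adjusted p = 0.00279), and Lin9, a MuvB subunit, fell by 1.55 (SE 0.33, adjusted p = 0.0160). Of 15 core subunits of the anaphase-promoting complex none was called by limma and 1 had an unadjusted p under 0.05, with a median of -0.19, while both of its partners described above, Cdc20 and Ube2c, were called lower. In sorted cultures, where 10.7% of all genes tested were called lower, 73 of the 91 mitosis genes (80.2%) were called lower and 2 higher. There 38 of the 41 S phase genes (92.7%), 4 of the 11 (36.4%) and 1 of the 15 (6.67%) were called lower, the last a share below that of all genes.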

How the data were processed

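RNA from 18 mouse libraries in 9 groups of 2 was amplified from 2.5 ng with SMARTer V4, which does not mark strand, and sequenced as 75-base single reads, per the labels' protocols. The deposited TPM values were made by the authors with tools that the submitters' processing notes list as STAR, FastQC, Salmon and DESeq2, with the build mm10. The sources used here do not say which tool gave the values or with which settings. TPM keeps no read depth, so no counting error is given.

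Of the 47729 gene identifiers per library, 505 matched no gene name and took 0.781 to 3.76% of the TPM. Genes at 1 TPM or more in at least 2 libraries, 20463 in all, were analysed as log2(TPM + 1) with limma 3.58.1 (R 4.3.3, trend, 1 mean per group, all libraries in 1 fit, 9 residual and 2.8 prior degrees of freedom). p-values were adjusted by Benjamini-Hochberg per comparison over 15 comparisons, with a threshold of 0.05, and the code was tested on simulated data. Summaries and figures came from Python 3.11.15 (pandas 2.3.3, matplotlib 3.10.9). The members and the other lists were chosen with earlier results of these data known. Values per library are printed for a set of genes taken by role and, in each comparison, for the 3 lowest and 3 highest differences and the exceptions.

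Per the labels, unsorted replicates of a number share a day of RNA extraction, as do sorted ones, so the numbers pair the culture libraries. Deviations from the group means correlated between same-numbered unsorted libraries at r 0.211 to 0.483 in 6 of 6 pairs of groups, sorted ones at 0.143 and native ones at 0.0993 to 0.141. Some labelled days of extraction fall after those of sequencing. The alternatives tried were a pseudocount of 0.1, no filter and a filter of 5 TPM, rescaled TPM, TPM without mitochondrial genes, the replicate number or sequencing date as a block, fits of only the groups compared and leaving out each library.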

Additional observations from a re-analysis of the deposited data

How the results depend on the processing

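Direction was stable for what was called: of 2452 alternative values of 203 called results, 2192 kept the call, 260 lost it and 0 changed sign. The number of the 42 genes called in a comparison depended on the fit, and counts here are of genes called lower unless said otherwise. With a pseudocount of 0.1, which counts low values more, 18 genes were called from D2 to D4 in place of 34, 9 at D10 against the native sorts in place of 3, and 5 in sorted D10 cultures against the Atoh1 sort in place of 2. When only the libraries of the groups compared were fitted, 0 genes were called from D2 to D4, 0 from D0 to D4 and 26 from D0 to D10 in place of 41, with fewer samples to estimate the spread. Leaving out 1 library gave 2 to 33 calls from D2 to D4, with 2 without D2 replicate 2 and 3 without D4 replicate 2. It gave 2 to 5 at D10 against the native sorts, 1 in sorted D10 cultures against the Atoh1 sort, and 0 to 1 called higher in sorted than in unsorted D10 cultures. Nek2 was in addition called higher against the Atoh1 sort without sorted D10 replicate 2 or Atoh1 replicate 2. The median residual at D10 in unsorted cultures was 1.82% without D10 replicate 1 and 2.74% without D10 replicate 2, against 2.61%. Depth is unknown, so values under 1 TPM cannot be given a counting error.

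Among the differences named in the text, those whose sign turned were not called, and the cause was not tested. With TPM rescaled by median-of-ratios factors, D2 against D0 was 0.046 for Cenpa and 0.048 for Nuf2, and Lgr5 against Sox2 was 0.014 for Aurka. With 1 library left out, D2 against D0 ranged from -0.32 to 0.25 for Cenpa, -0.50 to 0.51 for Cenpf and -0.46 to 0.41 for Nuf2, and D10 against D4 from -0.27 to 0.58 for Tpx2 and -0.10 to 0.39 for Ect2. The sorted minus the unsorted change ranged from -1.05 to 0.038 for Cdk1 and -1.36 to 0.30 for Mad2l1. Sorted against unsorted cultures ranged from -0.043 to 1.30 for Birc5 at D0 and -1.30 to 0.36 for Mad2l1 at D10. Sorted D0 against Lgr5 ranged from -0.35 to 1.01 for Cenpe, and Lgr5 against Sox2 from -0.43 to 0.41 for Aurka and -0.10 to 1.25 for Cenpe.

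With the replicate number as a block, 34 genes were called from D2 to D4, 40 from D0 to D4 with Nek2 added, 41 from D0 to D10, 4 at D10 against the native sorts and 2 in sorted D10 cultures against the Atoh1 sort. With the sequencing date as a block these were 33, 40, 41, 4 and 3. In both, Nek2 was in addition called higher against the native sorts and the Atoh1 sort.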
